A study of Mus musculus with 24 samples.

Results

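RNA read counts of 38 sterol and fatty acid metabolism genes were described in 2 mouse tumour cell lines. They were treated for 3 h with a BET inhibitor, with TNF, or with both. The genes were chosen by name, with earlier results of these data known. The list covers cholesterol synthesis, its control, fatty acid synthesis, efflux and sterol handling. All 38 were found among the 43629 genes of the deposited count table. The lines were E0771 (breast adenocarcinoma) and MC38, which derives from colon adenocarcinoma. Each received DMSO as solvent control, 2.5 µM RG6146, 10 ng/mL TNF, or the combination of RG6146 with TNF. RG6146 blocks BET bromodomains, which bind acetylated histones, and TNF is a cytokine that activates NF-kB. Each line and treatment had 3 libraries, 24 in all, whose reads come from the 3′ end of each polyadenylated RNA. The labels name no genetic change in any group, but the growth protocol for all samples named MC38-Ova cells, and the labels were followed. The labels do not say that replicates came from separate cultures, so the tests see the spread between libraries alone, which may be technical.

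Cholesterol is built from acetyl-CoA through mevalonate and squalene. The transcription factor SREBP2, made from Srebf2, turns on most genes of this route, and SREBP1, made from Srebf1, turns on fatty acid synthesis. SCAP carries SREBPs out of the endoplasmic reticulum when sterol is low, and the INSIG proteins hold SCAP back when sterol is high, so that Insig1, itself an SREBP target, closes a feedback loop. When oxysterols accumulate, the LXR receptors (Nr1h2 and Nr1h3) turn on efflux pumps such as Abca1 and Abcg1. Tumour cells lean on both routes for membrane lipid.

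Promoters of the SREBP pathway often carry sterol response elements together with CCAAT boxes. The promoters of Insig1, Hsd17b7 and Acat2 are shown because these were the 3 members called higher with RG6146, alone or with TNF, in both lines. That of Hmgcs1 is shown because it alone among the 30 members with a RefSeq promoter at hand held a match to TCACNCCAC. Of the 7 members called higher in at least 1 line, Mvd, Scap and Sqle are not shown. Each window is the 250 bases before the RefSeq start in GRCm38.p6, written 5′ to 3′ on the strand of the gene, and capitals mark matches on either strand to TCACNCCAC (a sterol response element core), CCAAT and CACGTG (an E-box, to which SREBP1 and MYC family proteins can bind).
Insig1: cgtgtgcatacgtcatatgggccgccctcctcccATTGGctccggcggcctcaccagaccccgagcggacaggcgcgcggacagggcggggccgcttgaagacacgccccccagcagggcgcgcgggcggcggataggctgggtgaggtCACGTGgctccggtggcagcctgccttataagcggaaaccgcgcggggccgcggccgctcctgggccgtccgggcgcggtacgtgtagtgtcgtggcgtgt
Hsd17b7: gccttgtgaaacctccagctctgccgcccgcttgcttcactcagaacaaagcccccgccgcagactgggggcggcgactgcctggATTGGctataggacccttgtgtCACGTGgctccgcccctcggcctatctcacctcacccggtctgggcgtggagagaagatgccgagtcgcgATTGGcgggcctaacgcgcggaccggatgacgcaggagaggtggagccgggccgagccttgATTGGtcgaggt
Acat2: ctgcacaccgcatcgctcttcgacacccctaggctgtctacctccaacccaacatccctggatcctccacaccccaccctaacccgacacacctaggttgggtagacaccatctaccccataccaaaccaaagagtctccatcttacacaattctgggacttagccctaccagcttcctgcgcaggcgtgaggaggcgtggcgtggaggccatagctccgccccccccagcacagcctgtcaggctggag
Hmgcs1: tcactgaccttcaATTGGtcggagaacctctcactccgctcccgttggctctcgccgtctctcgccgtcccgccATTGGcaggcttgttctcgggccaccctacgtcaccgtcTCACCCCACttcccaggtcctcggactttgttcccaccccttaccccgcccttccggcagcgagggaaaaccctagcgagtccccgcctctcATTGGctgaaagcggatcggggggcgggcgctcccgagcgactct
The Insig1 window lies on the plus strand at chr5:28071162-28071411, the Hsd17b7 window on the minus strand at chr1:169969206-169969455, the Acat2 window on the minus strand at chr17:12960726-12960975, and the Hmgcs1 window on the plus strand at chr13:119690101-119690350. The Insig1 window held 1 CCAAT box and 1 E-box, and the Hsd17b7 window held 3 CCAAT boxes and 1 E-box. The Acat2 window held no match to any of the 3 motifs. The Hmgcs1 window held 3 CCAAT boxes and 1 match to TCACNCCAC. RefSeq promoters were found for 30 of the 38 genes, 39 promoters in all. CCAAT occurred in 22 of those 39 (56.4%) against 33.8% of all 32851 promoters of the same length. CACGTG occurred in 6 of 39 (15.4%) against 6.02%, and TCACNCCAC in 1 of 39 (2.56%) against 1.05%. These matches are descriptions of letters and no binding was measured.

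Library totals ran from 5392406 to 9132814 counts in E0771 and from 5392808 to 9673118 in MC38. As a check of the treatments, 2 genes outside the list were read first. Nfkbia, an NF-kB target, rose by 3.51 ± 0.09 in E0771 and 3.46 ± 0.13 in MC38 with TNF (log2 fold change ± SE, 3 against 3 libraries, as for all values below). Hexim1, a gene raised by BET inhibitors, rose by 1.42 ± 0.11 and 0.72 ± 0.18 with RG6146. In all, 4 libraries stood apart. In E0771, TNF replicate 2 held 0.376% mitochondrial rRNA, and in MC38, DMSO replicate 2 held 0.609%, against a median of 2.59% and 2.57% over each line's 12 libraries. The 8 fibroblast markers summed to 714.4 CPM in MC38 TNF replicate 1, and the 17 leukocyte markers to 195.6 CPM in MC38 combination replicate 2, while the 11 remaining MC38 libraries had 4.41 to 11.6 CPM. Of 8 epithelial markers only Krt8 had a median of at least 1 CPM in E0771, and none had in MC38, where Epcam, Krt18, Krt19 and Cldn7 were at or near 0. The colon marker Cdx2 was at 0 in every library of both lines. Of the 8 fibroblast markers, Col3a1, Pdgfra and Pdgfrb had a median of at least 1 CPM in E0771, and the other 5 were below it. In MC38 the sum reached 324 to 714.4 CPM, led by Dcn and Col3a1, while Col1a1, Col1a2, Lum and Thy1 had medians of 0 to 0.598 CPM. In bulk RNA, fewer cells of a type and less RNA per cell cannot be told apart.

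With RG6146 few of the sterol and fatty acid genes were called, and most had no call. In E0771, RG6146 against DMSO raised Insig1, Hsd17b7 and Acat2 and lowered Elovl6, Stard4 and Scd1. In MC38 it raised Insig1, Hsd17b7 and Sqle. A call here is an adjusted p under 0.05 in edgeR's quasi-likelihood test over all genes tested, and 35 of the 38 genes passed the filter on low counts in each line. The 6 calls of 35 in E0771 (17.1%) stood against 10.8% of all genes tested, and the 3 of 35 in MC38 (8.57%) against 8.27%, so the share called in MC38 was near the background. Leaving out any 1 DMSO or RG6146 library of E0771 brought its 6 calls to 1 or 2, while 5.71% to 7.31% of all genes were called. The 3 MC38 calls came to 1 without DMSO replicate 2, RG6146 replicate 2 or RG6146 replicate 3 (5.5%, 3.5% and 4.3% of all genes). They came to 5 without TNF replicate 1 (10.8% of all genes) and to 6 without the libraries that stood apart (9.3%). The median change was 0.12 over the members and 0.00392 over all genes in E0771, and 0.10 against -0.01 in MC38.

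**Figure D1:**
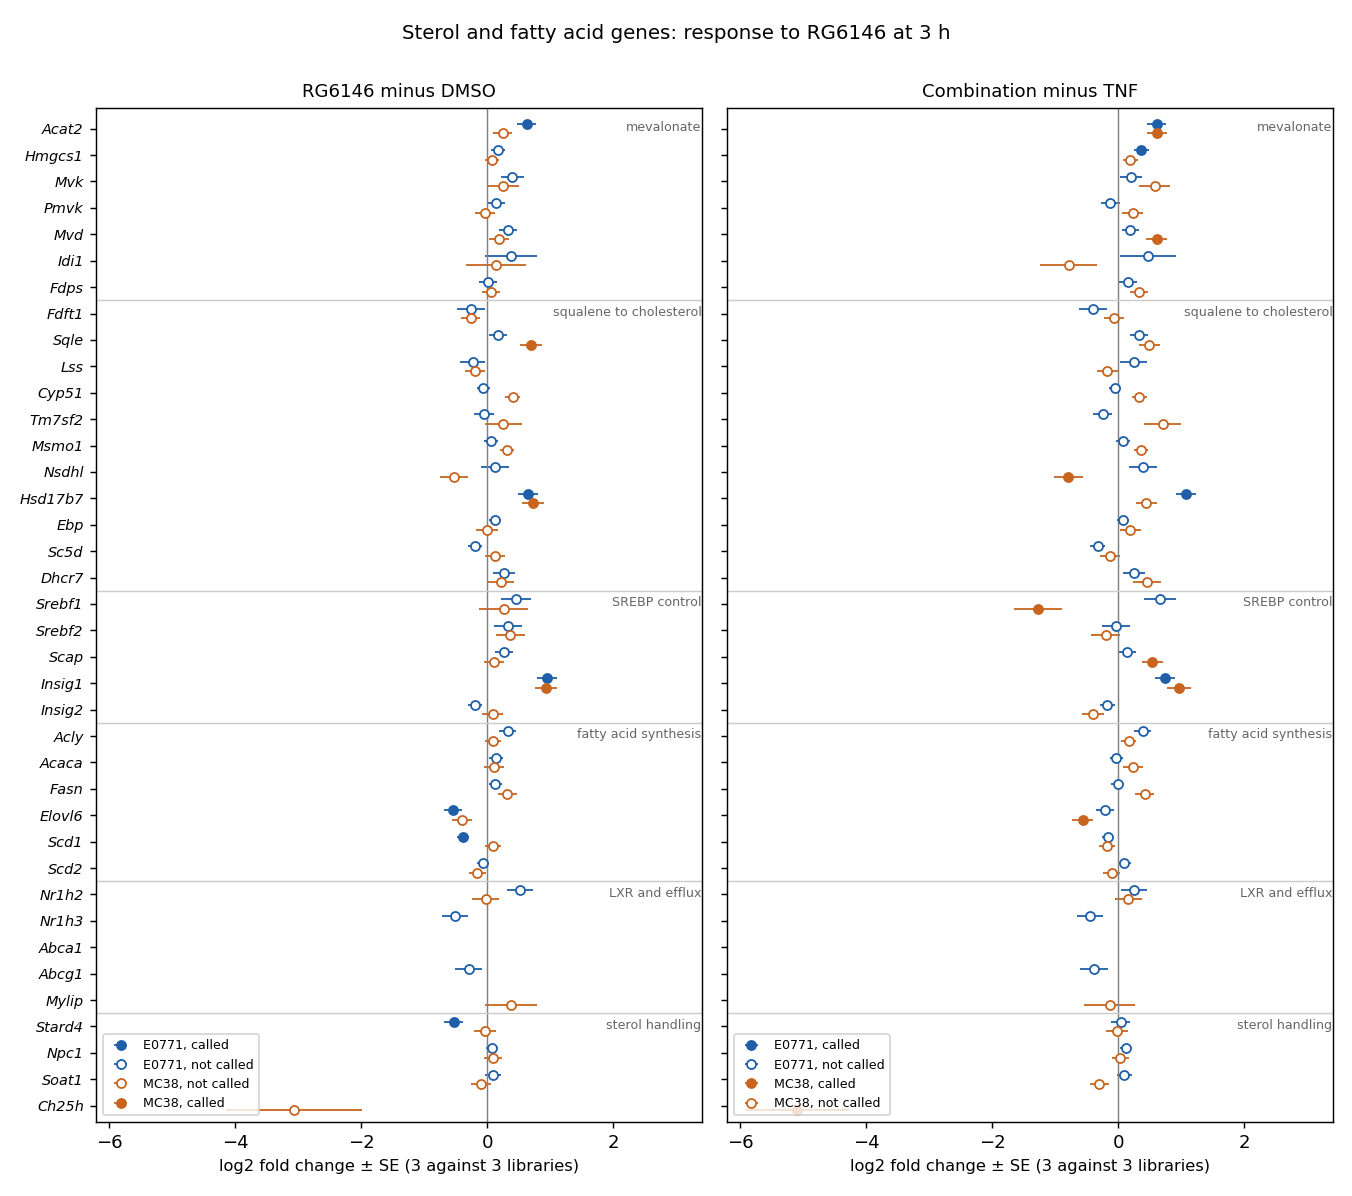
Log2 fold change ± SE of each gene (rows, grouped by role) for RG6146 minus DMSO and for combination minus TNF, E0771 in blue and MC38 in orange, 3 against 3 libraries; filled points were called and genes without a point did not pass the filter. Insig1 lies between 0.74 and 0.96 in all 4 comparisons, while most genes of the route lie near 0.

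Insig1 was the 1 member called in all 4 comparisons of libraries with and without RG6146. In E0771 it stood at 12.7, 10.8 and 12.2 CPM (library-scaled counts, with TMM factors) in DMSO and at 24.6, 19.6 and 24.4 CPM in RG6146. The TNF libraries had 11.1, 11.8 and 10.0 CPM and the combination 17.5, 21.7 and 16.2 CPM. In MC38 DMSO libraries had 24.5, 19.3 and 19.3 CPM, and RG6146 libraries 45.2, 40.7 and 34.1 CPM. With TNF present MC38 had 22.2, 16.5 and 16.8 CPM without the inhibitor and 32.0, 33.4 and 43.1 CPM with it. Every library with the inhibitor was above every library without it in each line. The gain over DMSO was 0.94 ± 0.16 in E0771 (adjusted p = 0.00135) and 0.93 ± 0.18 in MC38 (adjusted p = 0.00614). Over TNF it was 0.74 ± 0.16 (adjusted p = 0.00536) and 0.96 ± 0.18 (adjusted p = 0.00479). These 4 calls held in each fit that left out 1 library. The difference between the lines in the response to RG6146 was -0.03 with a 95% interval of -0.52 to 0.47. Insig1 (chr5:28071363-28078662, mm10, plus strand) is the gene whose promoter is printed first above.

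**Figure D2:**
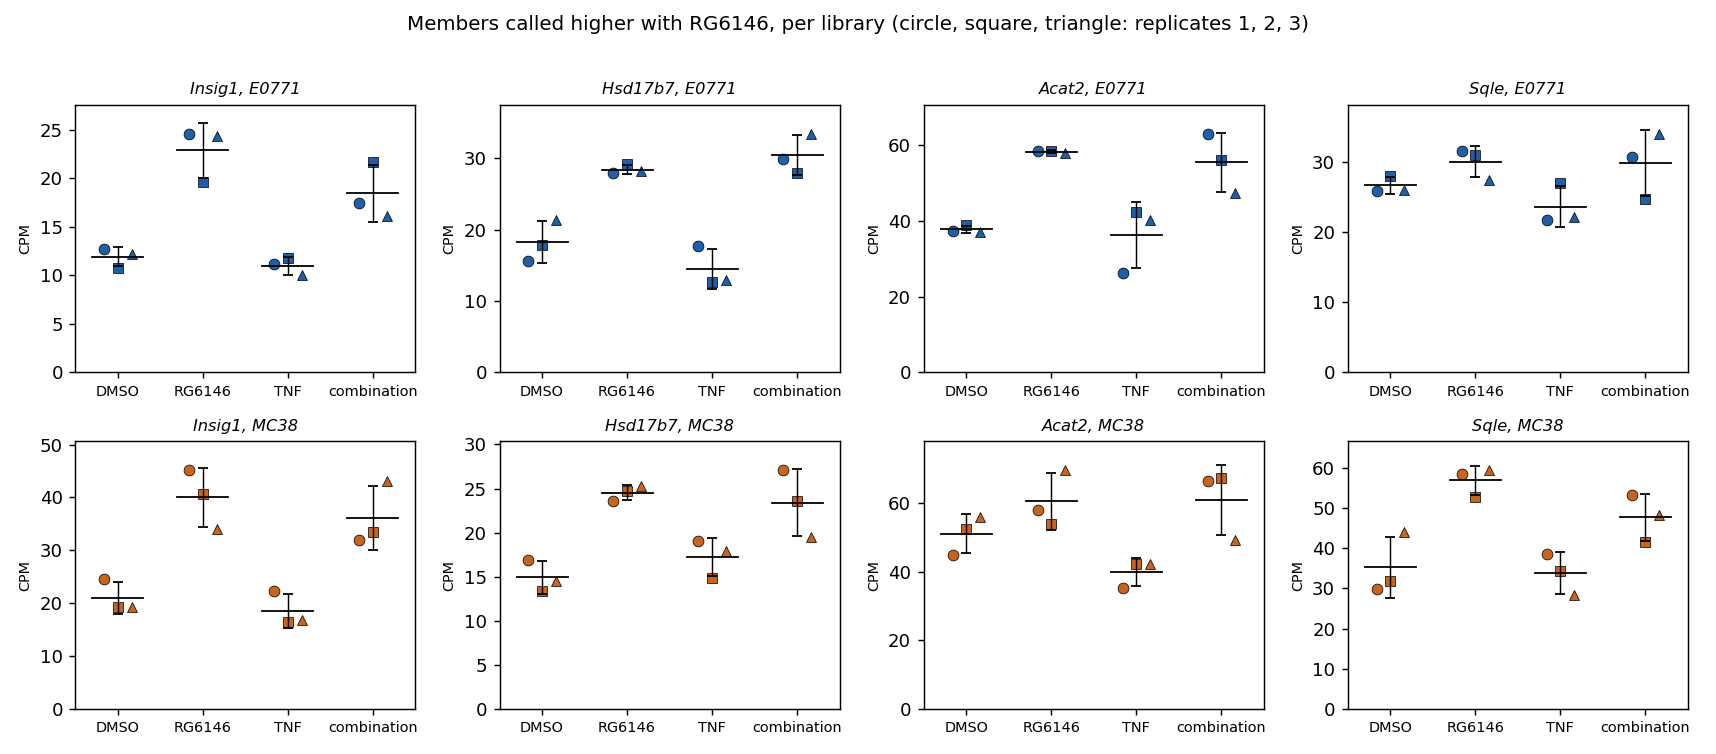
CPM per library of Insig1, Hsd17b7, Acat2 and Sqle in E0771 (upper row, blue) and MC38 (lower row, orange) under each treatment, with the mean as a line and the SD as bars (n = 3), y axes starting at 0. Insig1 libraries with RG6146 sit above those without it in both lines, while Sqle libraries overlap in E0771.

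Among the early, mevalonate steps, Acat2 makes acetoacetyl-CoA, Hmgcs1 condenses it further, and Mvk, Pmvk, Mvd, Idi1 and Fdps carry the product to farnesyl pyrophosphate. In E0771, Acat2 stood at 37.5, 38.9 and 37.2 CPM in DMSO and 58.6, 58.5 and 58.0 CPM in RG6146, without overlap. The rise was 0.62 ± 0.16 (adjusted p = 0.0185), and the call was lost when any 1 of the 6 DMSO and RG6146 libraries was left out (adjusted p 0.0549 to 0.0683). With TNF present, Acat2 went from 26.3, 42.4 and 40.4 CPM to 63.1, 56.1 and 47.3 CPM, again without overlap. That rise was 0.61 ± 0.16 (adjusted p = 0.0151), lost without combination replicate 1 or 2 (adjusted p 0.0555 to 0.0859). In MC38, Acat2 rose by 0.61 ± 0.16 over TNF (adjusted p = 0.025), from 35.3, 42.4 and 42.2 CPM to 66.5, 67.4 and 49.3 CPM. The MC38 call was lost without TNF replicate 1, combination replicate 1 or combination replicate 2 (adjusted p 0.0746 to 0.103), and at 0.46 without the libraries that stood apart (adjusted p = 0.162). Against DMSO it was 0.24 ± 0.16 in MC38 and was not called.

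Hmgcs1 in E0771 rose over TNF from 62.3, 53.5 and 70.1 CPM to 78.8, 78.2 and 82.1 CPM. The change was 0.37 ± 0.11 (adjusted p = 0.0408), the smallest of the calls in that comparison, and it was lost in 9 of 12 fits that left out 1 library (adjusted p up to 0.13), those without DMSO replicate 3, any RG6146 or combination library, or TNF replicate 1 or 2. It was also lost with library totals in place of TMM (0.32, adjusted p = 0.0693), with no filter on low counts (0.35, adjusted p = 0.0835) and without the library that stood apart (0.27, adjusted p = 0.0799). Reads of Gm48342 on the opposite strand can be counted with Hmgcs1, since the strand setting is not given in the sources used here; Hmgcs1 lies at chr13:119690379-119708260 (mm10). Mvd, which forms isopentenyl pyrophosphate, rose in MC38 over TNF by 0.61 ± 0.16 (adjusted p = 0.0294), from 26.4, 33.2 and 37.0 CPM to 49.3, 56.2 and 41.6 CPM. That call was lost without TNF replicate 1 or 2 or combination replicate 1 or 2 (adjusted p 0.0607 to 0.127) and without the libraries that stood apart (0.38, adjusted p = 0.199). Mvd in MC38 had 44.1 to 53.9 CPM in DMSO and 49.7 to 60.5 CPM in RG6146, so every TNF library lay below all others. The difference between the lines in the Mvd response to TNF was not called (adjusted p = 0.0896). It was called with DESeq2 (0.94, adjusted p = 0.0163), with no filter (0.93, adjusted p = 0.0146) and without E0771 TNF replicate 1 (1.08, adjusted p = 0.0134). Summed over the 7 genes, the mevalonate steps in E0771 had 197 to 211 CPM in DMSO and 248 to 253 CPM in RG6146. With TNF they had 186 to 229 CPM, and 249 to 276 CPM in the combination. In MC38 the sums were 362 to 379 CPM in DMSO and 373 to 425 CPM in RG6146, which overlap, and 324 to 338 CPM in TNF against 392 to 434 CPM in the combination. Over all 7 genes, 1 was called higher and none lower for RG6146 alone in E0771, and none either way in MC38. With TNF present 2 of 7 were higher in each line. Of all genes tested, 10.8% in E0771 and 8.27% in MC38 were called either way for RG6146 alone. With TNF present these shares were 16.6% and 11.3%.

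The later steps run from squalene to cholesterol. Sqle, the oxygenase that makes squalene epoxide and a rate-limiting step, rose in MC38 from 29.9, 31.9 and 43.9 CPM in DMSO to 58.5, 52.8 and 59.5 CPM in RG6146. The change was 0.69 ± 0.17 (adjusted p = 0.0226), lost without DMSO replicate 1 or 2 or any RG6146 library (adjusted p 0.0565 to 0.0905). In E0771, Sqle libraries overlapped at 25.8, 28.1 and 26.0 CPM in DMSO and 31.6, 31.0 and 27.5 CPM in RG6146 after a change of 0.17 ± 0.14. The difference between the lines was -0.56 ± 0.23 and was not called (adjusted p = 0.359). With TNF present, Sqle in MC38 had 38.7, 34.4 and 28.4 CPM without the inhibitor and 53.2, 41.6 and 48.3 CPM with it, without overlap. That change was 0.50 ± 0.17 and not called (adjusted p = 0.0774), but it was called with DESeq2 (0.54, adjusted p = 0.0376), without DMSO replicate 3 (0.53, adjusted p = 0.0331) and without the libraries that stood apart (0.69, adjusted p = 0.0389). In E0771, TNF libraries had 21.7, 27.0 and 22.2 CPM and the combination 30.7, 24.7 and 34.0 CPM, which overlap. The E0771 change was 0.33 ± 0.14, not called (adjusted p = 0.126), and was called at 0.44 without TNF replicate 2, the library that stood apart (adjusted p = 0.0349). Hsd17b7, a ketosteroid reductase of the sterol demethylation complex, rose in both lines. In E0771 it went from 15.6, 17.8 and 21.4 CPM to 27.9, 29.1 and 28.2 CPM, a change of 0.64 ± 0.16 (adjusted p = 0.0158). That call was lost without DMSO replicate 1 or 2 or RG6146 replicate 2 or 3 (adjusted p 0.0541 to 0.0781). Over TNF in E0771 the change was larger in size at 1.07 ± 0.16 (adjusted p = 0.000324), from 17.7, 12.7 and 12.9 CPM to 29.9, 27.9 and 33.5 CPM, and the call held whichever library was left out. The interaction of both agents for Hsd17b7 was 0.43 ± 0.22 and was not called (adjusted p = 0.9999). In MC38 Hsd17b7 rose from 16.9, 13.3 and 14.5 CPM to 23.6, 24.8 and 25.2 CPM (0.72 ± 0.17, adjusted p = 0.0172), lost without DMSO replicate 2 or RG6146 replicate 2 or 3 (adjusted p 0.0586 to 0.0676). Over TNF in MC38 it was 0.45 ± 0.17 and was not called.

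Nsdhl, a dehydrogenase of the same demethylation complex, went the other way in MC38. It stood at 9.51, 7.22 and 8.65 CPM with TNF and at 5.15, 5.66 and 3.64 CPM in the combination. The fall was -0.79 ± 0.23 (adjusted p = 0.0387) and was lost in 8 of 12 fits that left out 1 library (adjusted p 0.0504 to 0.123): those without DMSO replicate 1 or 3, RG6146 replicate 2, TNF replicate 1 or 3, or any combination library. It was also lost with DESeq2 (-0.75, adjusted p = 0.0501), with no filter on low counts (-0.77, adjusted p = 0.0668) and without the libraries that stood apart (-0.82, adjusted p = 0.0938). Against DMSO its change was -0.54 ± 0.22 and was not called. The 8 remaining genes (Fdft1 at the entry, then Lss, Cyp51, Tm7sf2, Msmo1, Ebp, Sc5d and Dhcr7) were called in none of the treatment comparisons of either line. Cyp51, the lanosterol demethylase, was closest in MC38 at 0.40 ± 0.12 (adjusted p = 0.0521), with 194, 179 and 198 CPM in DMSO and 225, 243 and 287 CPM in RG6146, groups that do not overlap. Exons of Akap9 lie on the opposite strand of Cyp51, and their reads can be counted with it. Summed over the 11 late genes, MC38 had 566 to 584 CPM in DMSO and 663 to 755 CPM in RG6146, and 531 to 534 CPM in TNF against 625 to 679 CPM in the combination. In E0771 the same sums were 388 to 405 CPM and 389 to 416 CPM, which overlap. These sums weigh Cyp51 and Msmo1 most, neither of them called. In MC38 their means were 190 and 126 CPM in DMSO and 252 and 157 CPM in RG6146. Of the 11 genes, 7 changed upward and 4 downward with RG6146 alone in MC38, and 2 were called.

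Among the regulators besides Insig1, Scap and Srebf1 were called in 1 comparison each, and Srebf2 and Insig2 in no treatment comparison. Scap in MC38 rose over TNF by 0.54 ± 0.17 (adjusted p = 0.0496), from 30.9, 35.3 and 34.4 CPM to 45.4, 53.4 and 47.7 CPM. That call was lost in 10 of 12 fits that left out 1 library (adjusted p 0.0618 to 0.167), those without DMSO replicate 1, any RG6146, TNF or combination library. It was also lost with library totals (0.50, adjusted p = 0.0713) and without the libraries that stood apart (0.42, adjusted p = 0.18). Reads of 5830462I19Rik on the opposite strand can be counted with Scap. Srebf2, the precursor of SREBP2, had 110, 135 and 94.7 CPM in E0771 DMSO and 145, 141 and 139 CPM in RG6146, a change of 0.32 ± 0.22 that was not called. In MC38 it had 42.5, 61.5 and 32.3 CPM in DMSO and 61.4, 57.4 and 57.4 CPM in RG6146. Without the libraries that stood apart this MC38 change was 0.66 and was called (adjusted p = 0.0176), against 0.36 ± 0.23 with all libraries.

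**Figure D3:**
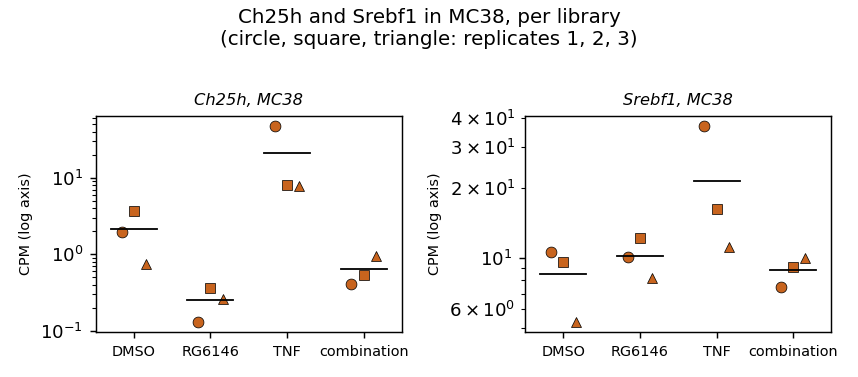
CPM per library of Ch25h and Srebf1 in MC38 under each treatment, on log axes, with the mean as a line (n = 3). In both genes TNF replicate 1 is the highest library, at 47.7 CPM for Ch25h and 36.9 CPM for Srebf1.

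Srebf1 in MC38 was lower in every combination library than in every TNF library. It had 10.6, 9.58 and 5.29 CPM in DMSO, 36.9, 16.2 and 11.1 CPM in TNF, and 7.45, 9.08 and 9.97 CPM in the combination. Combination against TNF was -1.27 ± 0.38 (adjusted p = 0.0431) and groups did not overlap. Without TNF replicate 1 it was -0.64 and not called (adjusted p = 0.213), and without the libraries that stood apart -0.67 (adjusted p = 0.244). The call was also lost without DMSO replicate 1, any RG6146 library or any combination library (adjusted p from 0.0546 over these fits). TNF against DMSO was 1.32 ± 0.37 and not called (adjusted p = 0.135), although every TNF library lay above every DMSO library. It was called with DESeq2 (1.32, adjusted p = 0.0256), with no filter (1.30, adjusted p = 9.63e-06) and without TNF replicate 3 (1.63, adjusted p = 0.0381). The interaction was -1.53 ± 0.53 and not called (adjusted p = 0.818), and with no filter it was called at -1.52 (adjusted p = 0.00216). In E0771 Srebf1 over DMSO with TNF was -0.53 ± 0.25, not called, and without E0771 TNF replicate 1 it was -0.9995 and called (adjusted p = 0.00571). The difference between lines in the TNF response was -1.81 ± 0.47 and was not called (adjusted p = 0.098). Without that E0771 library it was called at -2.25 (adjusted p = 0.0155), and without MC38 TNF replicate 3 at -2.12 (adjusted p = 0.0297). It was also called with DESeq2 (-1.80, adjusted p = 0.0225) and with no filter (-1.81, adjusted p = 3.5e-06). Combination against TNF in E0771 was 0.66 ± 0.25 and not called (adjusted p = 0.0893), and was called at 0.64 with no filter (adjusted p = 0.012) and at 1.13 without TNF replicate 1 (adjusted p = 0.000826). Reads of Rai1 on the opposite strand can be counted with Srebf1.

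Of the 6 fatty acid genes, Elovl6 and Scd1 were called lower with RG6146 in at least 1 comparison, and the other 4 were called in no treatment comparison with all libraries. Acly supplies cytosolic acetyl-CoA, Acaca and Fasn build palmitate, Elovl6 lengthens it, and Scd1 and Scd2 add the double bond that makes oleate. With RG6146 in E0771, Elovl6 fell from 35.9, 42.0 and 37.0 CPM to 28.1, 25.6 and 25.0 CPM. The change was -0.55 ± 0.15 (adjusted p = 0.0251), lost without DMSO replicate 2 or 3 or any RG6146 library (adjusted p 0.0538 to 0.109). Scd1 fell from 90.2, 82.8 and 88.2 CPM to 65.2, 69.7 and 65.8 CPM, by -0.38 ± 0.09 (adjusted p = 0.0185), lost without DMSO replicate 1 or 3 or RG6146 replicate 1 or 3 (adjusted p 0.0668 to 0.0841), and with no filter on low counts (adjusted p = 0.0604). In MC38 Scd1 had 88.3, 96.2 and 101 CPM in DMSO and 99.0, 104 and 102 CPM in RG6146. The difference between the lines in the Scd1 response was -0.51 ± 0.15 and was not called (adjusted p = 0.168). Elovl6 in MC38 fell over TNF from 51.2, 37.9 and 42.3 CPM to 28.7, 28.2 and 32.0 CPM, by -0.57 ± 0.16 (adjusted p = 0.0373). That call was lost without RG6146 replicate 2, TNF replicate 1 or 3, or any combination library (adjusted p 0.0565 to 0.124), and without the libraries that stood apart (-0.40, adjusted p = 0.205). Elovl6 shares sequence positions with Gm35986 on the opposite strand. In E0771, Fasn, the synthase itself, had 366, 330 and 393 CPM in DMSO and 389, 393 and 406 CPM in RG6146. In MC38 it had 482, 543 and 559 CPM in DMSO and 537, 675 and 764 CPM in RG6146, a change of 0.32 ± 0.15. In E0771 TNF against DMSO, Fasn was 0.33 ± 0.10 and not called, and without TNF replicate 1 it was 0.43 and called (adjusted p = 0.0139).

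**Figure D4:**
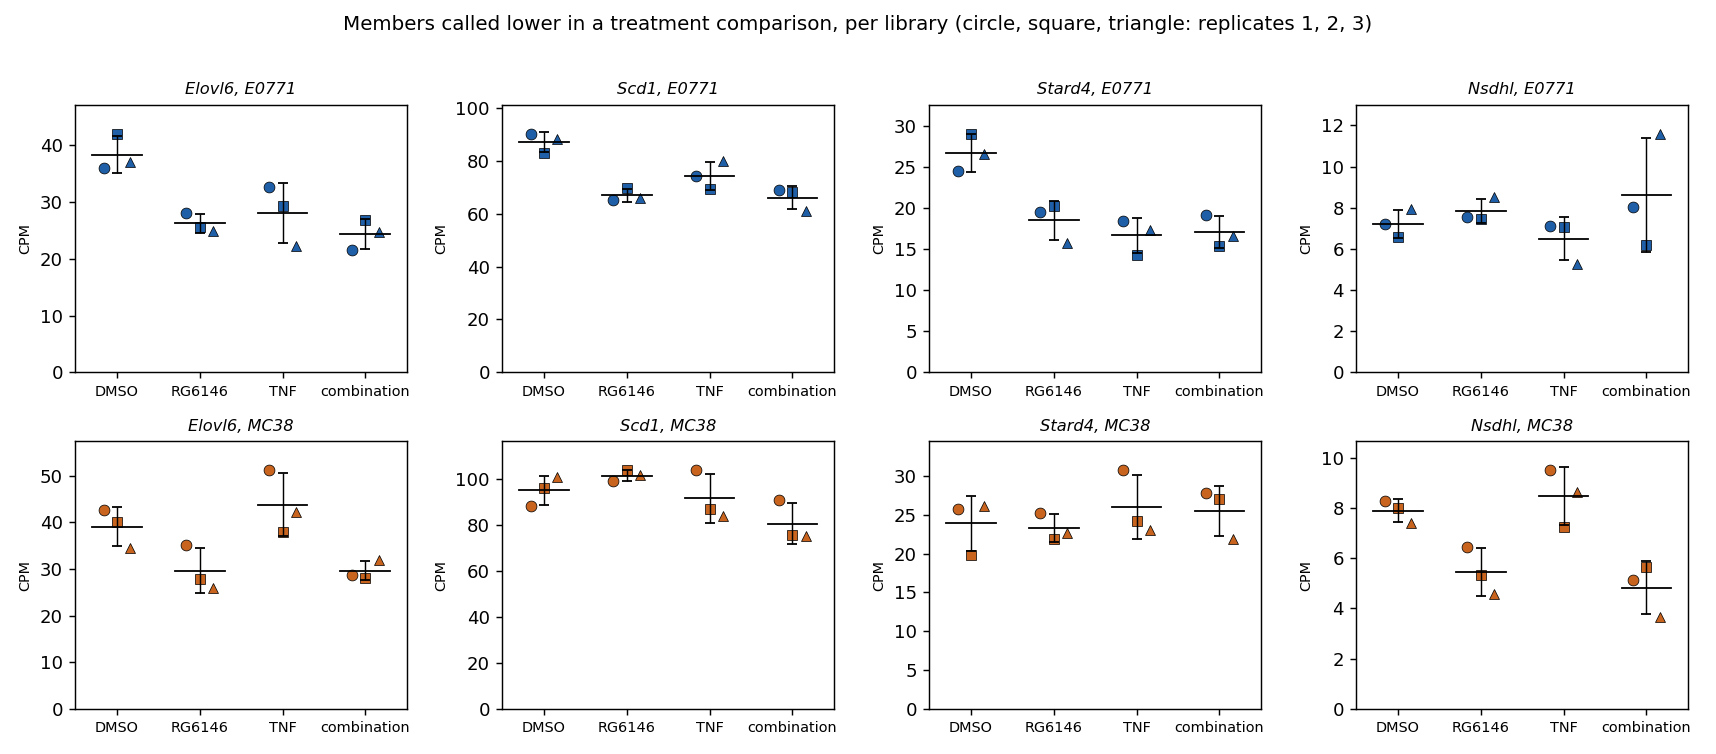
CPM per library of Elovl6, Scd1, Stard4 and Nsdhl in E0771 (upper row, blue) and MC38 (lower row, orange) under each treatment, with the mean as a line and the SD as bars (n = 3), y axes starting at 0. In E0771 the DMSO libraries of Stard4 (24.5 to 29.0 CPM) lie above all other Stard4 libraries of that line.

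Sterol handling genes move or store cholesterol. Stard4, a carrier between membranes, was the only member called for TNF alone in E0771, and it fell from 24.5, 29.0 and 26.5 CPM to 18.4, 14.3 and 17.3 CPM. The change was -0.69 ± 0.15 (adjusted p = 0.0214), lost without DMSO replicate 2 (-0.62, adjusted p = 0.128) or 3 (-0.68, adjusted p = 0.0794). RG6146 libraries of E0771 had 19.5, 20.2 and 15.7 CPM, a fall of -0.53 ± 0.15 (adjusted p = 0.0336), lost without any 1 of the 6 DMSO and RG6146 libraries (adjusted p 0.0514 to 0.162). The combination had 19.2, 15.4 and 16.5 CPM, and the interaction was 0.57 ± 0.21, not called (adjusted p = 0.9999). In MC38 Stard4 had 19.8 to 26.1 CPM in DMSO and 21.9 to 25.3 CPM in RG6146. The difference between the lines in the TNF response was -0.77 ± 0.22 and was not called (adjusted p = 0.135). Npc1, the endosomal cholesterol exporter, and Soat1, which esterifies cholesterol for storage, were called in no treatment comparison.

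Ch25h, whose product is an oxysterol that also blocks SREBP release, was the only member called for TNF alone in MC38. Its counts were low, and read as CPM it had 1.98, 3.65 and 0.755 in DMSO and 47.7, 8.08 and 7.74 in TNF. With RG6146 it had 0.129, 0.362 and 0.26 CPM, and in the combination 0.406, 0.527 and 0.958 CPM. The TNF libraries lay above all others, and the combination lay below DMSO in 2 of 3 libraries. The TNF rise was 3.22 ± 0.67 (adjusted p = 0.0324), and the combination against TNF was -5.09 ± 0.82 (adjusted p = 0.00176). The TNF call was lost without any DMSO library, any RG6146 library or TNF replicate 1 (1.82, adjusted p = 0.102), over a range of 1.82 to 3.96. The fall in the combination was kept whichever library was left out, and at -3.59 without the libraries that stood apart (adjusted p = 0.000919). RG6146 against DMSO was -3.07 ± 1.08 and not called (adjusted p = 0.103). It was called with DESeq2 (-3.06, adjusted p = 0.0357), with no filter (-3.07, adjusted p = 2.32e-07), at -3.06 without TNF replicate 1 (adjusted p = 0.00684) and at -2.31 without the libraries that stood apart (adjusted p = 0.0421). The interaction was -2.02 ± 1.75, not called. Gm26902 overlaps Ch25h on the opposite strand at chr19:34473778-34475164 (mm10). In E0771 Ch25h had 4 counts in 12 libraries and was not tested.

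None of the LXR and efflux genes tested was called for any treatment. Abca1 had 2 counts over the 12 E0771 libraries and 47 over the 12 MC38 libraries, and was not tested. Its MC38 libraries had 0.541, 1.09 and 0.604 CPM in DMSO, 0.387, 0.242 and 0.39 CPM in RG6146, 1.61, 0.612 and 0.759 CPM in TNF, and 0.135, 0 and 0 CPM in the combination, each from 11 counts or fewer. Nr1h2, encoding LXR beta, changed by 0.52 ± 0.21 with RG6146 in E0771 and -0.03 ± 0.21 in MC38. Nr1h3, encoding LXR alpha, changed by -0.52 ± 0.21 and Abcg1 by -0.30 ± 0.22 in E0771. Mylip, an LXR target that directs lipoprotein receptors to degradation, changed by 0.38 ± 0.42 in MC38.

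With TNF present, RG6146 called 4 of 35 members in E0771 (11.4%), all higher, against 16.6% of all genes tested, and 8 of 35 in MC38 (22.9%), 4 higher and 4 lower, against 11.3%. Without combination replicate 1 or 2 the E0771 count was 2, against 11.1% and 9.92% of all genes. The MC38 count was 4 without the libraries that stood apart (7.24% of all genes). It was 2 without TNF replicate 1 (7.05%), combination replicate 1 (5.58%) or combination replicate 2 (5.57%). It was 4 without RG6146 replicate 2 (8.52%) or combination replicate 3 (6.68%) and 5 without DMSO replicate 1 (9.88%). The higher members in E0771 were Hsd17b7, Insig1, Acat2 and Hmgcs1. In MC38 they were Insig1, Acat2, Mvd and Scap, and the lower ones were Ch25h, Srebf1, Nsdhl and Elovl6. RG6146 alone and RG6146 with TNF are compared with different libraries. In E0771, 3 genes (Acat2, Hsd17b7 and Insig1) were called higher in both, 50% of the 6 and 75% of the 4. In MC38 Insig1 was, 33.3% of the 3 and 12.5% of the 8. The overlap over all genes was not counted, so these shares have no background. The median member change with TNF present was 0.0994 in E0771 and 0.17 in MC38, against 0.000818 and -0.03 over all genes.

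TNF called few members. TNF alone called 1 of 35 (2.86%) in each line, against 2.32% of all genes in E0771 and 1.09% in MC38. In E0771 the count was 0 without DMSO replicate 2 (1.29% of all genes) or 3 (1.51%). It was 2 without DMSO replicate 1 (1.47%), TNF replicate 2 (3.24%) or TNF replicate 3 (3.39%), and 5 without TNF replicate 1 (4.87%). In MC38 it was 0 without any DMSO or RG6146 library or TNF replicate 1 (0.703% to 0.902% of all genes). It was 2 without MC38 TNF replicate 3 (1.18%). TNF on top of RG6146 called none of 35, against 0.734% and 0.294% of all genes, with 1 member in each line at an unadjusted p under 0.05. The interaction called none of 35 in either line, against 0.0478% and 0.00% of all genes, with 1 member in each line at an unadjusted p under 0.05. DESeq2 called no member in these 4 comparisons. In MC38 TNF alone, 5 of the 7 mevalonate genes had a negative change and 4 of 7 an unadjusted p under 0.05, but none was called. The share of all genes at an unadjusted p under 0.05 was not counted, so these unadjusted counts have no background.

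Sums over marker lists of other cell types also moved with RG6146. The 8 fibroblast markers summed to 106 to 113 CPM in E0771 DMSO and 75.3 to 82.0 CPM in RG6146, and to 498 to 555 CPM in MC38 DMSO and 390 to 437 CPM in RG6146. With TNF present they had 95.7 to 136 CPM in E0771 TNF and 84.7 to 88.8 CPM in the combination, and in MC38 512 to 714.4 CPM and 324 to 399 CPM. In MC38 the 5 mammary markers, of which Gata3 and Esr1 had medians of at least 1 CPM and Pgr and Krt5 were at 0 in every library, had 10.6 to 13.9 CPM in DMSO and 6.84 to 8.33 CPM in RG6146. With TNF present they had 12.9 to 17.6 CPM, and 7.50 to 8.43 CPM in the combination. The 6 endothelial markers of MC38, led by Esam and Pecam1 with Kdr and Tie1 at a median of 0, went the other way, from 2.34 to 3.02 CPM in DMSO to 3.87 to 4.78 CPM in RG6146, and from 1.97 to 3.38 CPM in TNF to 4.41 to 8.03 CPM in the combination. In E0771 they had 13.4 to 14.6 CPM in DMSO and 11.96 to 13.2 CPM in RG6146, and overlapped with TNF present. The other lists overlapped between groups in these comparisons. In E0771 the median of Col3a1 was 59.7 CPM and Col1a2 was at 0 in all libraries. Library totals in E0771 also differed, at 5560571 to 7043974 counts in DMSO and 5392406 to 5515027 in RG6146. The part of any of these in the member changes was not tested.

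Another 46 genes of these pathways were taken from a list, also written with earlier results of these data known. They gave 5 calls of 41 tested with RG6146 in E0771 (12.2%, 2 higher and 3 lower). In MC38 they gave 3 of 44 (6.82%, all lower), and these shares were near the 10.8% and 8.27% of all genes. With TNF present the calls were 12 of 41 in E0771 (29.3%, 5 higher and 7 lower) against 16.6% of all genes, and 9 of 44 in MC38 (20.5%, 3 higher and 6 lower) against 11.3%. Those named here were chosen after their values were seen. Fits that left out libraries or changed a setting were read for the members only, so the stability of the values below was not tested. Cpt1a, which admits fatty acids into mitochondria for burning, rose by 0.9999 ± 0.14 with RG6146 in E0771, and with TNF present by 1.42 ± 0.15 in E0771 and 1.32 ± 0.27 in MC38. Acsl3, which activates fatty acids for lipid droplets, rose by 0.54 ± 0.12 in E0771 and 0.69 ± 0.12 with TNF present. Rnf139, a ubiquitin ligase of the sterol-sensing machinery, fell by 0.78 and 0.57 with RG6146 in E0771 and MC38, and by 1.13 and 0.70 with TNF present. Hilpda, an inhibitor of fat breakdown in droplets, fell by 0.57 and 0.58, and by 0.63 and 0.54. Plin2, a coat protein of lipid droplets, fell by 0.69 and 0.62 in MC38. Lpin1, a phosphatidate phosphatase, was the single other gene called for TNF alone, at 0.99 ± 0.20 in MC38.

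The lines themselves differed in the pathway before any drug. In DMSO, 27 of 37 members tested (73.0%) differed between E0771 and MC38, 10 higher in E0771 and 17 lower, against 58.7% of all genes. Over all genes the median difference was 0.000402, and over members -0.14, with 37 of 38 tested and Abca1 left out. The mevalonate genes were lower in E0771 in 5 of 7 (Acat2, Hmgcs1, Mvk, Mvd and Fdps), and none was higher. Hmgcs1 had 53.5, 65.4 and 60.1 CPM in E0771 and 158, 143 and 153 CPM in MC38, scaled over both lines, a difference of -1.34 ± 0.11 (adjusted p = 4.21e-10). Fdft1, the first committed step toward squalene, had 6.44, 7.92 and 10.0 CPM in E0771 and 36.8, 44.9 and 38.01 CPM in MC38 (-2.30 ± 0.18). Reads of Ctsb on the opposite strand can be counted with Fdft1, and reads of Akap9 with Cyp51. Of the 11 later genes 5 were lower (Fdft1, Sqle, Lss, Cyp51 and Msmo1) and 3 higher (Ebp, Sc5d and Dhcr7) in E0771. The call for Acat2 was lost without E0771 DMSO replicate 1 or 3 or MC38 DMSO replicate 2 or 3 (adjusted p 0.0623 to 0.0914), that for Mvk without E0771 DMSO replicate 1 or MC38 DMSO replicate 1 or 2 (adjusted p 0.0598 to 0.114), and that for Sqle without E0771 DMSO replicate 1 or 3 or MC38 DMSO replicate 3 (adjusted p 0.0765 to 0.238).

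**Figure D5:**
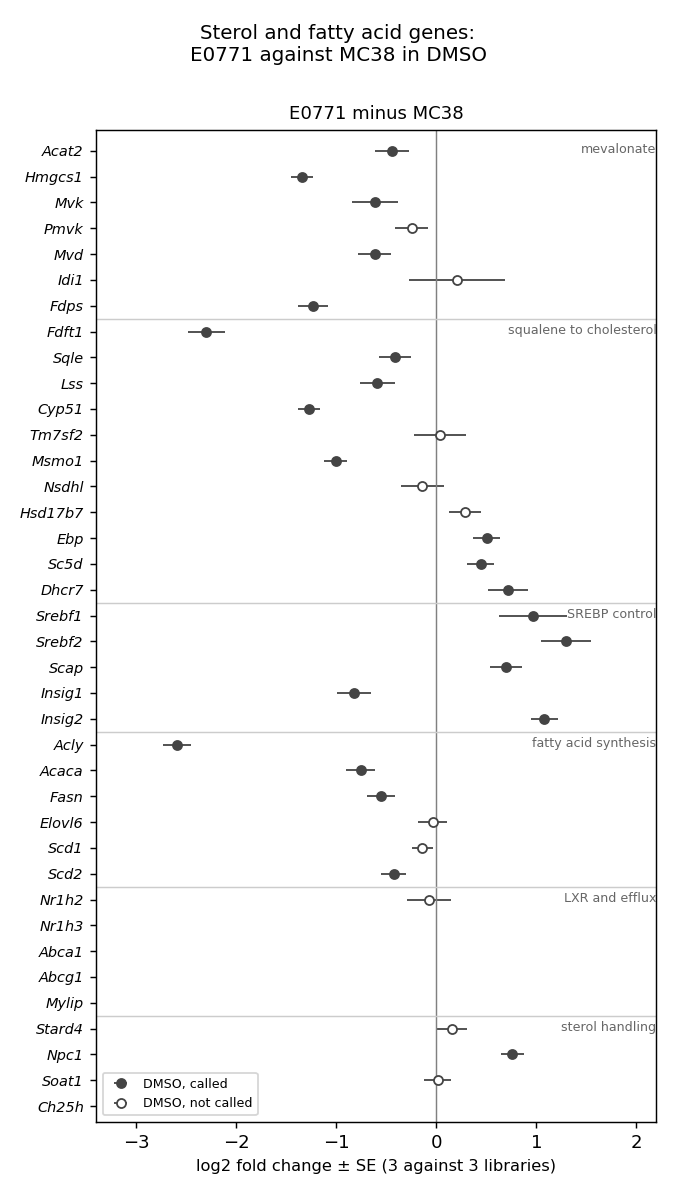
Difference in DMSO between the lines (E0771 minus MC38, log2 fold change ± SE, 3 against 3 libraries) for each gene, grouped by role; filled points were called. Nr1h3, Abcg1, Mylip and Ch25h, at or near 0 in 1 line, and Abca1, not tested, are not drawn. The points of the fatty acid genes lie at or below 0 and 4 of the 5 SREBP regulators lie above it.

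The regulators went the other way. Srebf1, Srebf2, Scap and Insig2 were higher in E0771 by 0.97 ± 0.34, 1.29 ± 0.25, 0.70 ± 0.16 and 1.08 ± 0.14, and Insig1 was lower by 0.83 on the log2 scale (SE 0.17). For Srebf2 the libraries had 110, 133 and 93.6 CPM in E0771 and 42.4, 61.6 and 32.3 CPM in MC38. The Srebf1 call was lost without E0771 DMSO replicate 2 (0.84, adjusted p = 0.0745) or MC38 DMSO replicate 3 (0.72, adjusted p = 0.0919). Fatty acid genes were lower in E0771 in 4 of 6, while 58.7% of all genes differed between the lines in either direction. Acly had 50.5, 40.3 and 46.4 CPM against 283, 288 and 257 CPM, a difference of -2.60 ± 0.14, and Fasn 367, 323 and 389 CPM against 481, 543 and 558 CPM (-0.55 ± 0.14). Acaca was at -0.76 ± 0.14 and Scd2 at -0.43 ± 0.12, while Elovl6 and Scd1 were not called. Npc1 was higher in E0771 (0.76 ± 0.11), and reads of Gm15956 and Rmc1 on the opposite strand can be counted with it.

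Among the efflux and oxysterol genes, 4 were counted in 1 line and at or near 0 in the other. In DMSO, Abcg1 had 1118 counts in E0771 and 2 in MC38, a ratio of 639 (95% exact interval 176 to 5280, counting error only). Nr1h3 had 170 and 3 counts, a ratio of 64.7 (21.8 to 317). In MC38 combination replicate 2 Abcg1 reached 5.27 CPM, while the other 11 MC38 libraries had at most 0.161 CPM. In that library the leukocyte, epithelial and adipocyte marker sums were also above those of the other 11. There Krt8 was at 7.11 CPM and Fabp4 at 11.3 CPM, against medians of 90.7 and 153 CPM in E0771. Where the Abcg1 counts of that library came from was not tested. Mylip had 81 counts in MC38 and none in E0771, at least 23.6-fold higher in MC38 with a floor of 3 counts over the group. Ch25h had 53 counts in MC38 and 1 in E0771, a ratio of 46.4 (7.97 to 1867). None of the 37 members differed between the lines in the response to RG6146 or to TNF by the test, against 0.384% and 0.206% of all genes. An unadjusted p under 0.05 was reached by 5 and 11 members. The share of all genes at that unadjusted limit was not counted, so 5 and 11 have no background to be read against. DESeq2 called 0 and 2, against 0.883% and 1.53% of all genes.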

How the data were processed

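The authors deposited 1 table of raw counts, whole numbers with 43629 Ensembl genes as rows and 24 libraries as columns. Per the labels' protocols, libraries were primed with oligo-dT at the 3′ end, so a count is a number of 3′ reads and was not scaled by length. Per the submitters' processing notes, bcl2fastq 2.17.1.14, cutadapt 1.14, HISAT2 2.1.0, featureCounts of Subread 1.5.2 and limma were used, with mm10. The annotation release, the strand setting and any molecular barcodes were not given in the sources used here. No column was left unused (0).

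The members and lists were chosen with earlier results of these data known. Symbols came from a gene name list, which held 42462 of the identifiers, and loci and overlaps from GENCODE vM21. Exons of another gene lay on the opposite strand for 10 members and on the same strand for 5. The 10 were Hmgcs1, Idi1, Fdft1, Lss, Cyp51, Srebf1, Scap, Elovl6, Npc1 and Ch25h. The 5 were Fdps, Tm7sf2, Srebf1, Scd2 and Nr1h3. How reads in shared positions were assigned was not tested, so such reads may have been added to a count or lost from it. Each line was fitted apart (12 libraries, 4 groups of 3, no covariate) with edgeR 4.0.16 in R 4.3.3: filterByExpr, TMM, and the quasi-likelihood F test, two-sided, with Benjamini-Hochberg adjustment over 12541 genes in E0771 and 13272 in MC38. Lines were compared in 1 fit of 24 libraries and 14058 genes. Calls needed an adjusted p below 0.05. SE is the absolute log2 fold change over the root of F, and CPM are counts scaled by TMM. The interaction was combination minus RG6146 less TNF minus DMSO. Intervals of count ratios are exact binomial at 95%, and cover counting error only. Per-library values are given for members called in RG6146 or TNF against DMSO, combination against TNF or the interaction, and for Srebf2, Fasn and Abca1 whatever their result. Those of Cyp51, Fdft1 and Acly were added after their values were seen. The fits were tested on simulated counts. Alternatives were RLE scaling, library totals, no filter, DESeq2 1.42.0, a replicate block, each library left out, and the 4 libraries that stood apart left out. Same-numbered libraries did not deviate together (correlations of -0.18 to 0.14 in E0771 and -0.34 to 0.24 in MC38), so replicate numbers were not used as pairs. Figures were drawn with matplotlib 3.10.9 in Python 3.11.15.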

Additional observations from a re-analysis of the deposited data

How the results depend on the processing

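Over 212 member results and 4620 alternatives, 4467 kept their side of the threshold, 126 lost a call and 27 gained one. Direction was checked only for the 50 results called with all libraries, and 0 of their alternatives reversed it. The call was kept under every alternative run for 22 of the 27 differences between lines in DMSO, but for 6 of the 23 called treatment results. Those 6 were Insig1 in all 4 comparisons with RG6146, and Hsd17b7 in E0771 and Ch25h in MC38 for the combination against TNF. The cause of the changes below was not tested. The share of all genes called also changed over the fits that left out 1 library. For TNF it was 1.29% to 4.87% in E0771 and 0.703% to 1.18% in MC38. For RG6146 it was 5.71% to 18.3% and 3.54% to 10.8%, and for the combination against TNF 9.92% to 22.7% and 5.57% to 12.9%. The count of members called for TNF against DMSO in E0771, 1 with all libraries, was 0 to 5 without 1 library. It was 2 with RLE scaling, library totals, no filter, DESeq2 or without the libraries that stood apart (2.11% to 3.24% of all genes). For TNF in MC38 it was 1, and 0 to 2 without 1 library. It was 3 under no filter (2.29% of all genes), 2 with DESeq2 (2.51%) and 0 with the replicate block (0.836%). For RG6146 it was 6 in E0771, with 1 to 7 without 1 library. In MC38 it was 3, with 6 under DESeq2 (10.7% of all genes) or without the libraries that stood apart (9.31%) and 1 to 5 without 1 library. For the combination against TNF it was 4 in E0771, with 2 to 6 without 1 library, and 8 in MC38, with 4 without the libraries that stood apart and 2 to 9 without 1 library. Under no filter 1 member was called for the combination against RG6146 and 1 for the interaction in MC38, and 4 for the difference between lines in the TNF response, which was 2 with DESeq2 and 0 to 2 without 1 library. The replicate block gave 5, 3, 3 and 6 calls for RG6146 and for the combination against TNF in E0771 and then in MC38, and 23 in place of 27 for the lines in DMSO. Of 12 libraries, 2 in E0771 and 3 in MC38 correlated best with a library of their own number. Low counts limit Ch25h, Idi1, Nr1h3, Abca1, Abcg1 and Mylip.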
